A study of Mus musculus with 143 samples.

Results

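The costimulatory receptors of T cells are described here through 7 genes. They are Tnfrsf9 (encoding 4-1BB), Tnfrsf4 (OX40), Tnfrsf18 (GITR), Cd27, Icos, Cd28 and Cd40lg (CD40 ligand). The members were taken as the rows of the deposited FPKM table whose Ensembl identifiers carry these symbols, and all 7 were found among the 54232 identifiers of the table. FPKM, fragments per kilobase of transcript scaled to the fragments of the library, is a level corrected for transcript length, so levels of different genes can be set side by side.

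The table holds libraries of whole-tumour RNA from 11 syngeneic mouse models, 13 from each, a model being a mouse tumour cell line injected under the skin of the flank. Every model has 3 libraries of untreated tumours (labelled Baseline), 5 of tumours from mice given the mouse IgG1 isotype antibody and 5 from mice given muDX400, a mouse antibody against the inhibitory receptor PD-1. The antibodies were injected on days 11 and 15, counted from implantation, and collection was on day 19, which the labels call 8 days. The labels put CM3, MBT2 and MC38 in the response class High, CT26, EMT6, MB49 and RENCA in Partial, and 4T1, B16F10, LL2 and TC1 in Resistant. As background, MC38 and CT26 are colon lines, 4T1 and EMT6 mammary, MB49 and MBT2 bladder, RENCA renal, B16F10 a melanoma, and LL2 and TC1 lung lines. The labels give no origin for CM3, and host strain, sex, age and the day on which baseline tumours were taken are not stated in these sources. All models are transplanted lines grown under the skin of the flank, and no cells were sorted, so every value mixes tumour cells with the cells of the host.

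A T cell that meets its antigen through the T-cell receptor needs a further signal for full activation, and costimulatory receptors supply it. CD28 is present on resting T cells and binds CD80 and CD86 on antigen-presenting cells, while ICOS, its relative, appears after activation and is abundant on regulatory and follicular helper T cells. 4-1BB, OX40, GITR and CD27 belong to the tumour necrosis factor receptor family and signal through TRAF adaptors to NF-kB. CD40 ligand is a member of the matching ligand family, displayed mainly by activated CD4 T cells, and engages CD40 on B cells, dendritic cells and macrophages.

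On GRCm38, Tnfrsf4 (ENSMUSG00000029075, chr4:156013843-156016612, plus strand) and Tnfrsf18 (ENSMUSG00000041954, chr4:156026164-156028895, plus strand) are neighbours with 9551 bases between them. Tnfrsf9 (ENSMUSG00000028965, chr4:150914562-150946102, plus strand) lies ahead of them on the same chromosome. Cd28 (ENSMUSG00000026012, chr1:60716800-60773359) and Icos (ENSMUSG00000026009, chr1:60977927-61000320) stand on the plus strand on either side of Ctla4, the inhibitory receptor of the same family, which begins 113640 bases after Cd28 and ends 62094 bases before Icos. Cd27 (ENSMUSG00000030336, chr6:125232622-125237010) is on the minus strand and Cd40lg (ENSMUSG00000031132, chrX:57212143-57224042) on the plus strand. All 7 genes are annotated as protein coding.

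Promoter sequence is shown for Tnfrsf4 and Tnfrsf18, neighbours of which each was the gene most like the other over group means, for Cd27, whose level followed T-cell transcripts most closely, and for Tnfrsf9, whose level did not follow them. The stretches come from RefSeq (GRCm38.p6), read 5′ to 3′ on the strand of the gene and kept to bases outside annotated exons. Of the 7 members, 4 have an entry. Capitals mark GGAAA, a short core shared by NF-kB and NFAT sites, or its reverse complement TTTCC. The AP-1 core TGANTCA was searched in the same way on both strands.
Tnfrsf4, chr4:156013445-156013594: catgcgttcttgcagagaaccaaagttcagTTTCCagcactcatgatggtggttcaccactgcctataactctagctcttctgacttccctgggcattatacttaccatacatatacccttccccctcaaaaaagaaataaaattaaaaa
Tnfrsf18, chr4:156026072-156026163: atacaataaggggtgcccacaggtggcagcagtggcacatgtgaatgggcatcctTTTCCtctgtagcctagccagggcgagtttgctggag
Cd27, chr6:125237137-125237277: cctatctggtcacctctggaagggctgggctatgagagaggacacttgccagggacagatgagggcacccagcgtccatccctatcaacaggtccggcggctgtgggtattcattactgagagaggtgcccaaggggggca
Tnfrsf9, chr4:150919905-150920154: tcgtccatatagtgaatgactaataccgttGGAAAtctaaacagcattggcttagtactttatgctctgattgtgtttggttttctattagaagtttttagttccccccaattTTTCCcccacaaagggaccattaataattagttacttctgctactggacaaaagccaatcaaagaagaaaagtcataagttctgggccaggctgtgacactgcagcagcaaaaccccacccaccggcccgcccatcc
GGAAA stands once in the Tnfrsf4 and in the Tnfrsf18 stretch, 2 times in that of Tnfrsf9 and 0 times in that of Cd27, and TGANTCA stands in none of the stretches printed. The stretches for Tnfrsf4, Tnfrsf18 and Cd27 were cut from windows of 250 bases, which hold GGAAA 1, 2 and 1 times and TGANTCA 0 times. Tnfrsf9 has a second entry (chr4:150927749-150927998, not printed), with 3 GGAAA and 1 TGANTCA. Both Tnfrsf9 windows, also the printed one, lie inside the span annotated for the gene and not ahead of it. Among all 32851 promoter windows of 250 bases, 55.6% hold GGAAA and 6.75% hold TGANTCA. No binding was measured.

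Before the comparisons, some facts of the libraries bear on the values. Depth, estimated from the steps between low values, ran from about 11600000 to 50500000 fragments with a median of 21100000, and at the lowest depth an FPKM of 1 corresponds to between 3.81 fragments (the shortest Tnfrsf18 transcript) and 50.5 fragments (the longest Cd28 transcript). Every library correlated best with a library of their own model. Sample numbers in the labels fall into 4 blocks, named here sample-number blocks. The isotype and muDX400 tumours of each model are in the same block, whereas baseline and isotype tumours share one in B16F10 and RENCA only. The summed level of 7 T-cell markers (Cd3d, Cd3e, Cd3g, Cd2, Cd5, Cd6 and Lat) ran from 0.441 to 186 FPKM among isotype libraries and from 0.568 to 130 among muDX400 libraries. In bulk tumours fewer T cells and less receptor RNA per T cell cannot be told apart. The labels do not say that libraries are separate mice, although the protocol describes a single injection per mouse.

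A pair of isotype libraries stood apart from their groups. CM3 isotype replicate 4 had 4.22 FPKM of Cd27 against 1.30 to 1.44 in the other 4, and RENCA isotype replicate 2 had 1.40 FPKM of Cd40lg against 0 to 0.0417. The summed T-cell markers of the first were 58.8 FPKM, where the median CM3 isotype tumour had 18.1, and those of the RENCA library were 186, where the median was 30.7. The RENCA library also held 509.6 FPKM of the B- and plasma-cell markers Ms4a1, Cd79a and Jchain together, against 1.72 to 2.71 in the other 4, and the CM3 library 128 against 0.818 to 18.5. The isotype orders and the comparisons that these 2 libraries move are given with and without them.

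Tnfrsf9 was the most abundant of the 7 transcripts in every library and Cd40lg the least abundant in 138 of them. Over the libraries Tnfrsf9 ran from 3.08 to 88.6 FPKM with a median of 19.2, and no library was under 1. Tnfrsf18 and Tnfrsf4 followed with medians of 2.72 and 2.47 FPKM and were at or above 1 in 125 and 129 libraries. Cd27 had a median of 1.32 FPKM (84 libraries at or above 1), Icos 0.863 (61 libraries) and Cd28 0.448 (27 libraries). Cd40lg reached 1 FPKM in 1 library and was listed at 0 in 70, so its level is not resolved at this depth in most tumours.

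**Figure D1:**
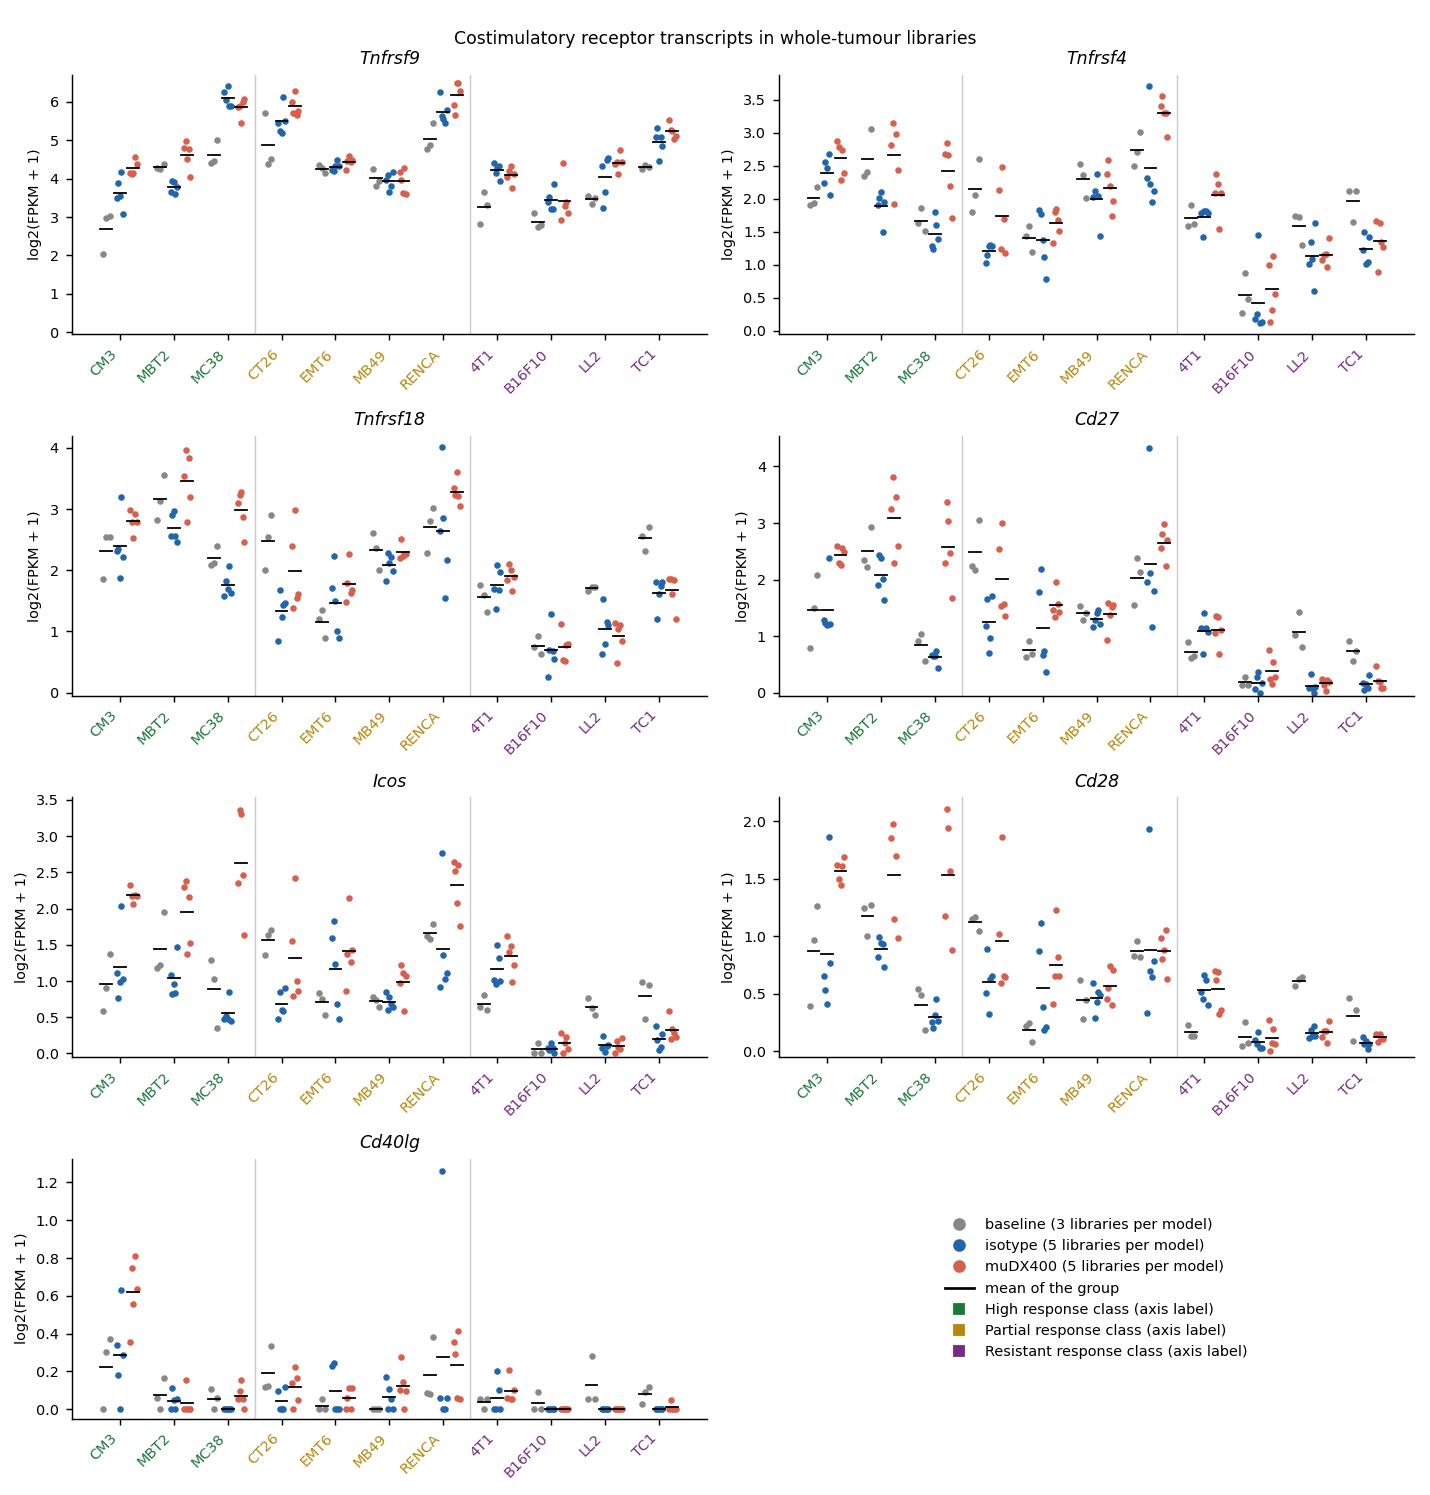
Level of each of the 7 genes, as log2(FPKM + 1) on axes that differ between panels, in every library, by model and arm, with the mean of each group as a black bar. Models are grouped by response class in the order High, Partial, Resistant; Tnfrsf9 never falls under 3.08 FPKM, whereas Cd27, Icos and Cd28 lie near 0 in B16F10 tumours of all arms and in the 8-day tumours of LL2 and TC1.

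The order of models by Tnfrsf9 was unlike that of the other members. Among isotype tumours MC38 was highest with 68.2 ± 11.4 FPKM (SD, n = 5), followed by RENCA with 53.1 ± 12.7, CT26 with 45.7 ± 13.6 and TC1 with 30.7 ± 6.69. EMT6, 4T1, LL2, MB49, MBT2 and CM3 lay between 18.9 and 11.9, and B16F10 was lowest with 9.97 ± 2.18. None of the 10 pairs of neighbours in this order was separated beyond the range of its libraries. TC1 tumours thus held more Tnfrsf9 than MBT2 tumours, which had 12.8 ± 1.43 FPKM, and the ranges of these groups (20.9 to 38.8 and 11.2 to 14.3) did not overlap.

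Levels of Cd3e, the signalling chain of the T-cell receptor complex, went the other way in that pair, at 0.178 FPKM in TC1 and 11.1 in MBT2 isotype tumours. The ratio of mean Tnfrsf9 to mean Cd3e in isotype tumours was 173 in TC1, 103 in LL2 and 63.0 in B16F10, and 1.16 in MBT2, 2.66 in CM3 and 3.63 in MB49. Across the 11 model means the Pearson correlation of Tnfrsf9 with Cd3e was 0.32 at baseline, 0.13 in isotype and 0.44 in muDX400 tumours (Spearman 0.49, 0.04 and 0.49). In isotype tumours it was 0.95 for Cd27, 0.92 for Cd28, 0.87 for Tnfrsf18, 0.80 for Icos and 0.79 for Tnfrsf4, and in the other arms these 5 genes had 0.79 to 0.97. These correlations describe 11 points each and share the scaling of each library. Which cells of a tumour carried the Tnfrsf9 transcripts was not measured.

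Tnfrsf4, Tnfrsf18 and Cd27 were highest in RENCA isotype tumours, at 5.18 ± 3.84, 6.41 ± 5.14 and 5.79 ± 7.42 FPKM (SD, n = 5), means in which the replicate that stands apart weighs heavily. Its values were 12.0, 15.1 and 19.0 FPKM, and the other 4 RENCA libraries had 2.87 to 4.00, 1.91 to 6.27 and 1.23 to 3.34. MBT2 came next for Tnfrsf18 (5.54 ± 1.07) and Cd27 (3.30 ± 0.967), and CM3 for Tnfrsf4 (4.33 ± 0.901). B16F10 was lowest for Tnfrsf4 (0.448 ± 0.718) and Tnfrsf18 (0.664 ± 0.465), and LL2 for Cd27 (0.0870 ± 0.0967). Without the 2 libraries that stand apart, RENCA came second in all 3 genes, at 3.47, 4.24 and 2.49 FPKM (n = 4), behind CM3 for Tnfrsf4 (4.07, n = 4) and behind MBT2 for Tnfrsf18 and Cd27. Neighbours in these orders overlapped in their libraries, except that MC38 stood above the next model in Cd27 (0.351 to 0.675 FPKM).

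Icos was highest in RENCA (2.09 ± 2.11 FPKM), CM3 (1.40 ± 0.974), EMT6 (1.38 ± 0.917) and 4T1 (1.26 ± 0.385) isotype tumours and lowest in B16F10 (0.0492 ± 0.0383). MC38 (0.364 to 0.804 FPKM) again stood above the next model without overlap. Without the 2 libraries RENCA had 1.16 and CM3 0.974 FPKM of Icos (n = 4 each), so that EMT6 and 4T1 led. Cd28 did not exceed a group mean of 1 FPKM in isotype tumours, its highest being 0.996 ± 1.03 in RENCA; without the 2 libraries RENCA had 0.542 and MBT2 led with 0.853 ± 0.134. Cd40lg was highest in RENCA as well, with a mean of 0.296 FPKM, and next in CM3 with 0.233, and without the 2 libraries these means were 0.0207 and 0.154.

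muDX400 was compared with isotype within each model, 5 libraries against 5, with limma on log2(FPKM + 1) and Benjamini-Hochberg adjustment over all genes tested in the model, at a threshold of 0.05. Genes entered the test with 5 or more of the 10 libraries at 1 FPKM or above. MC38 was the only model in which members passed. There Tnfrsf4, Tnfrsf18, Cd27 and Icos rose, 4 of the 5 members tested, beside 27.3% of all genes called. The median difference was 1.23 (log2) over the 5 members and -0.06 over all genes tested. Of the 5, Tnfrsf18 differed by 1.23, Tnfrsf4 by 0.95 and Tnfrsf9 by -0.24. Cd27 and Icos passed the filter only through the 5 muDX400 libraries, so they had to differ and their calls add nothing to the count. Their values also enter the median of the 5, which therefore cannot be set beside that of all genes. Without any 1 of the treated libraries both fell under the filter and Tnfrsf4 and Tnfrsf18 were the members called.

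In MC38, Icos had 0.397, 0.436, 0.389, 0.804 and 0.364 FPKM in the isotype tumours and 4.11, 9.32, 8.91, 4.51 and 2.12 after muDX400. Every treated tumour lay above every control. The difference was 2.07 ± 0.29 on the log2 scale (SE; adjusted p = 0.00106, limma). Cd27 had 0.580, 0.570, 0.573, 0.675 and 0.351 FPKM against 3.91, 9.30, 7.24, 4.55 and 2.20, again without overlap, a difference of 1.94 ± 0.26 (adjusted p = 0.00100). Both genes had their lowest treated value in replicate 5. With a pseudocount of 0.1 the differences were 3.21 for Icos and 2.95 for Cd27, and both passed.

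Tnfrsf18 in MC38 went from 1.99, 2.53, 2.22, 3.21 and 2.11 FPKM to 7.54, 8.42, 8.76, 6.32 and 4.51. The groups did not overlap and the difference was 1.23 ± 0.16 (adjusted p = 0.00100). Tnfrsf4 had 1.44, 1.36, 2.50, 2.04 and 1.62 FPKM against 5.41, 6.18, 5.35, 3.57 and 2.26. Here treated replicate 5 lay below the highest control, and the difference was 0.95 ± 0.21 (adjusted p = 0.00861). Cd28, under the filter, had 0.194, 0.148, 0.245, 0.369 and 0.203 FPKM against 1.26, 3.30, 2.85, 1.96 and 0.841, again without overlap (difference 1.24; exact permutation p = 0.00794, the smallest that 5 against 5 libraries can give). Cd40lg was listed at 0 in all 5 isotype tumours and reached at most 0.113 FPKM after muDX400.

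Tnfrsf9 was the exception in MC38. It had 75.3, 64.5, 84.3, 58.7 and 58.0 FPKM in isotype tumours and 57.5, 58.7, 42.6, 62.6 and 66.8 after muDX400, and the arms overlapped. Its difference of -0.24 ± 0.14 did not pass (adjusted p = 0.212). Beside these values, the summed T-cell markers of MC38 went from 7.03 to 13.9 FPKM in isotype tumours to 26.1 to 105 after muDX400. Beside 1864 of 12775 genes called higher, all 7 T-cell, all 4 myeloid, all 4 endothelial and all 3 tested mast-cell markers rose as well. The part of these cells in the receptor values was not tested here beyond the comparison at equal T-cell level.

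**Figure D2:**
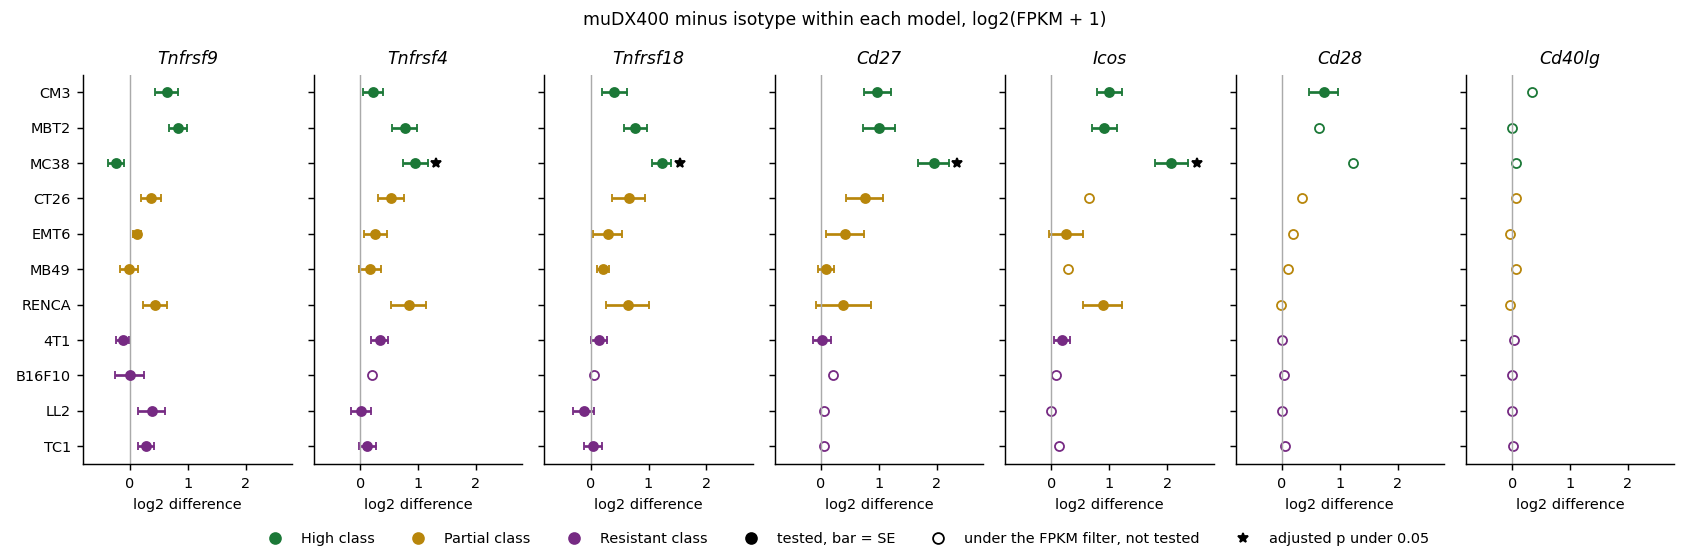
Difference between muDX400 and isotype tumours, in log2(FPKM + 1), for each gene and model; points are within-model differences with the SE as bar, hollow points are genes under the FPKM filter, and stars mark adjusted p under 0.05. The stars stand in MC38 only, and the Tnfrsf9 point of MC38 lies to the left of 0.

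In MBT2 none of 5 members tested passed, beside 0% of all genes (0 of 12541 by limma, 3597 at an unadjusted p under 0.05), although all 5 had an unadjusted p under 0.05. Tnfrsf9 had 11.6, 14.3, 14.2, 11.2 and 12.8 FPKM in isotype tumours and 26.6, 30.6, 21.7, 26.3 and 15.6 after muDX400. Here all treated tumours exceeded all controls, with a difference of 0.84 ± 0.15 (adjusted p = 0.0510). Cd27 had a difference of 1.01 ± 0.27, Icos 0.91 ± 0.21, Tnfrsf18 0.77 ± 0.21 and Tnfrsf4 0.77 ± 0.21, with adjusted p-values from 0.0510 to 0.0603. Without muDX400 replicate 3, whose Tnfrsf4, Cd27 and Icos were the lowest of the treated arm, all 5 passed, and without muDX400 replicate 5, 2 did. Many other genes passed in these fits too, and the counts over all genes are given with the processing below.

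CM3 resembled this with another library at its centre. None of 6 members tested passed, beside 0% of all genes (0 of 12945, 3441 at an unadjusted p under 0.05), with 4 members at an unadjusted p under 0.05. The median over all genes tested was itself 0.13 above 0 in CM3, and with median-ratio scaling it was -0.00 and Icos differed by 0.89. Icos had 1.17, 0.703, 0.980, 3.12 and 1.05 FPKM in isotype tumours and 4.03, 3.50, 3.18, 3.55 and 3.50 after muDX400. The arms did not overlap, and the isotype library at 3.12 is replicate 4, the one that stands apart; the difference was 0.99 ± 0.22 (adjusted p = 0.179). Without it, 5 members passed: Icos with 1.21, Cd27 with 1.20, Cd28 with 0.98, Tnfrsf9 with 0.77 and Tnfrsf18 with 0.61. Many genes outside the members passed in that fit as well, and the count over all genes is given with the processing below. Cd28 then reached the filter only through the 5 treated tumours, so it had to differ and its call adds nothing to the count.

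RENCA gave the same kind of case. None of 5 members tested passed, beside 2.57% of all genes, and Icos differed by 0.88 ± 0.34 (adjusted p = 0.249) and Tnfrsf4 by 0.83 ± 0.30 (adjusted p = 0.212). Tnfrsf4 had 4.00, 12.0, 3.67, 2.87 and 3.35 FPKM in isotype tumours and 9.58, 10.8, 8.79, 8.85 and 6.64 after muDX400. Apart from isotype replicate 2 the arms did not overlap, and without that library Tnfrsf4 (1.14, adjusted p = 0.0140, limma) and Icos (1.22, adjusted p = 0.0231) passed. The share of all genes passing in that fit is not reported here, so these 2 calls cannot be set beside it.

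In CT26 none of 4 members tested passed, beside 0.339% of all genes. The differences were 0.37 for Tnfrsf9, 0.54 for Tnfrsf4, 0.66 for Tnfrsf18 and 0.76 for Cd27, with a lowest adjusted p of 0.226. Of the treated tumours, replicate 3 was highest in all 7 genes, with 6.99 FPKM of Cd27 where the other treated tumours had 1.57 to 4.84.

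The other models showed little. In TC1, beside 0.0802% of all genes called, 0 of 3 members passed. In 4T1 (5 tested), B16F10 (1), EMT6 (5), LL2 (3) and MB49 (4) none passed, beside 0% of all genes in each; limma gave 601, 351, 538, 1973 and 1247 genes at an unadjusted p under 0.05, and 1 member, in 4T1, among them. No difference of a member in these 6 models exceeded 0.41 in size (Cd27 in EMT6). LL2 differed by 0.38 in Tnfrsf9, which all other members there did not follow, with differences from -0.12 to 0.05.

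Counted over models, the mean log2(FPKM + 1) was higher after muDX400 in 11 of 11 for Tnfrsf4 and Cd27, in 10 for Tnfrsf18, Icos and Cd28, in 7 for Tnfrsf9 and in 6 for Cd40lg. By the mean FPKM the counts were 10 for Tnfrsf4 and Cd27 and 9 for Tnfrsf9, and the same for the others. Arms were separated without overlap in 6 of the 77 pairs of gene and model, 4 in MC38 and 1 each in CM3 and MBT2. Every treated library lay above every control for 9.38%, 2.25% and 2.77% of all genes tested in these models. In MC38 the separated members were Tnfrsf18, Cd27, Icos and Cd28. Cd27 and Icos passed the filter only through the treated tumours, which fixed their separation, and Cd28 lay under the filter. Of the MC38 pairs, only Tnfrsf18 can therefore be set beside that share. Exact permutation tests, which need no filter, gave an unadjusted p under 0.05 for 5 of 7 members in CM3, 6 in MBT2, 6 in MC38, 1 in CT26 and 1 in RENCA. The same test called 27.2%, 25.3%, 41.7%, 18% and 14.4% of all genes past the filter in these models. The members counted include some under the filter, which these shares leave out.

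Over all 11 models weighted equally, in a fit of the 110 libraries at 8 days, all 6 members tested rose, beside 23.1% of all genes called. Cd28 passed the filter only with the help of the muDX400 libraries, so its call adds nothing to the count. In the fit without an expression filter Cd28 was called as well (adjusted p = 5.26e-05, limma), beside 3544 of 36590 genes. Icos rose most, by 0.58 ± 0.07 on the log2 scale (SE; adjusted p = 8.58e-09, limma), then Cd27 by 0.54 ± 0.09 (adjusted p = 1.46e-06), Tnfrsf4 by 0.40 ± 0.07, Tnfrsf18 by 0.40 ± 0.07 and Cd28 by 0.31 ± 0.06. Tnfrsf9 rose least, by 0.24 ± 0.06 (adjusted p = 0.000948). Sizes and order depend on the pseudocount for the low genes: with 0.1 in place of 1, all 6 again passed, with Icos at 0.97, Cd27 at 0.86, Cd28 at 0.65, Tnfrsf4 at 0.57, Tnfrsf18 at 0.50 and Tnfrsf9 at 0.25. The median was 0.40 over the 6 members, Cd28 among them, and -0.01 over all genes tested. Cd40lg, with 1 library at 1 FPKM, was not tested.

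Within sample-number blocks the mean effect had the same direction. Icos differed by 0.61 in the block of TC1, EMT6, LL2 and MC38, by 0.48 in that of B16F10 and RENCA and by 0.60 in that of the remaining 5 models, and Tnfrsf9 by 0.13, 0.21 and 0.34. No member passed within the block of B16F10 and RENCA, and Tnfrsf9 did not pass in the block that holds MC38 (adjusted p = 0.288, limma). The share of all genes called in the fit of B16F10 and RENCA is not reported here, so the lack of calls cannot be set beside it. Without MC38, all 6 members still passed, beside 1922 of 16019 genes called, and Cd28 adds nothing to this count either. Icos was then at 0.44, Cd27 at 0.39, Tnfrsf4 at 0.35, Tnfrsf18 at 0.31, Tnfrsf9 at 0.29 and Cd28 at 0.21.

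The ligands of these receptors were a list of 8 genes. Of the 6 tested, 3 rose and none fell in the mean effect, beside 23.1% of all genes called. Cd86 rose by 0.40 ± 0.07 and Cd80 by 0.20 ± 0.05, both ligands of CD28, and Cd40, the receptor of CD40 ligand, by 0.39 ± 0.09. Tnfsf9 (4-1BB ligand, 0.06), Tnfsf4 (OX40 ligand, -0.02) and Icosl (ICOS ligand, 0.09) did not pass, and Tnfsf18 (GITR ligand) and Cd70 (the CD27 ligand) were under the filter. The median of the 6 was 0.14. In MC38, Cd86 went from a mean of 7.45 ± 1.20 to 21.4 ± 6.31 FPKM (SD, n = 5) and Cd40 from 5.27 ± 1.05 to 15.0 ± 3.06.

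Among 17 signalling and adaptor genes of these receptors, 5 rose and 1 fell, with a median of 0.06. In the same fit 23.1% of all genes were called, 2348 of 16187 higher and 1388 lower. The largest rises were Prkcq (0.33), the protein kinase C of the T-cell synapse, and Grap2 (0.33), a T-cell adaptor that binds CD28; Siva1, whose product binds CD27, fell by 0.11. The TRAF adaptors Traf1, Traf2, Traf3 and Traf5 lay between -0.05 and 0.10 and did not pass. All 7 T-cell markers rose, with Cd3e at 0.62, and so did Cd8a (0.70), Pdcd1, the gene of PD-1 (0.73), and Foxp3 (0.32) and Ctla4 (0.53), which mark regulatory T cells. Markers of other cells rose beside them, 4 of 4 myeloid, 4 of 4 endothelial, 4 of 4 mast-cell and 3 of 4 NK-cell markers.

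Whether the effect of muDX400 differed between models was tested with a moderated F over the 11 within-model differences. It differed for 5 of 6 members tested, beside 32.4% of all genes. Cd28, which passed the filter only with the muDX400 libraries, adds nothing to that count. The adjusted p was 7.58e-06 for Icos, 0.000406 for Cd28, 0.000786 for Cd27, 0.0156 for Tnfrsf9 and 0.0211 for Tnfrsf18, and 0.116 for Tnfrsf4, which did not pass. Icos ranged from -0.0033 in LL2 to 2.07 in MC38 and Tnfrsf9 from -0.24 in MC38 to 0.84 in MBT2. Without MC38, 1 of the 6 members passed, and without RENCA isotype replicate 2 all 6 did. The count of all genes called also fell without MC38, as given with the processing below. For the fit without the RENCA library that count is not reported here.

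Class was coded as steps, from 0 (Resistant) over 1 (Partial) to 2 (High), with the model as the replicate. The effect of muDX400 rose with class for 3 of 6 members tested, beside 0.902% of all genes: Icos by 0.60 ± 0.12 per step (adjusted p = 0.0446, limma), Cd27 by 0.60 ± 0.12 (adjusted p = 0.0435) and Cd28 by 0.41 ± 0.08 (adjusted p = 0.0435; 0.74 with a pseudocount of 0.1, adjusted p = 0.0663). Here too Cd28 passed the filter only with the muDX400 libraries, so its call adds nothing to the count of 3. Tnfrsf18 had 0.39 ± 0.09 (adjusted p = 0.0551), Tnfrsf4 0.24 ± 0.09 (0.146) and Tnfrsf9 0.14 ± 0.11 (0.461). The mean Icos effect was 1.33 in the 3 High, 0.51 in the 4 Partial and 0.10 in the 4 Resistant models, and the lowest High model (0.91) lay above the highest Resistant one (0.18). Cd27, Cd28 and Tnfrsf18 also had their High models above their Resistant models, and Tnfrsf9 and Tnfrsf4 did not.

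Exact permutation of the classes over models, run through every arrangement, gave p = 8.66e-05 for Icos, the smallest it can give, 0.000173 for Cd27, 0.000433 for Cd28, 0.00173 for Tnfrsf18, 0.0424 for Tnfrsf4 and 0.291 for Tnfrsf9, unadjusted. The same test gave an unadjusted p under 0.05 for 23.7% of all genes tested. The adjusted calls did not hold throughout: none of the 3 passed with a pseudocount of 0.1, with median-ratio scaling, without the expression filter, or without any of 4T1, B16F10, CM3, CT26, EMT6, LL2, MC38 or TC1. Without RENCA isotype replicate 2, Icos missed the threshold (adjusted p = 0.0503), and without CM3 isotype replicate 4, Tnfrsf18 passed it (0.0342). The direction of the 3 slopes did not change in any of these fits.

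Levels in baseline and isotype tumours were set against class in the same way. For baseline tumours 0 of 5 members tested passed, beside 0% of all genes (0 of 14009 by limma, 431 at an unadjusted p under 0.05), with slopes from 0.24 for Tnfrsf9 to 0.49 for Cd27. For isotype tumours 0 of 5 passed, beside 0% of all genes (0 of 13589, 640 at an unadjusted p under 0.05), with slopes from 0.20 for Tnfrsf9 to 0.53 for Cd27, and Tnfrsf18 (0.50) and Cd27 at an unadjusted p under 0.05. Exact permutation for isotype tumours gave an unadjusted p of 0.0299 for Tnfrsf18, 0.0339 for Cd28 (slope 0.24), which was under the filter, and 0.0557 for Cd27, beside 4.95% of all genes tested at an unadjusted p under 0.05.

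Among tumours of the same group, 6 members varied with T-cell transcripts and Tnfrsf9 did so little. After subtracting group means, the Pearson correlation over all libraries with the mean log2 level of the 7 T-cell markers was 0.90 for Cd27, 0.83 for Tnfrsf18, 0.78 for Cd28, 0.76 for Tnfrsf4, 0.76 for Icos, 0.63 for Cd40lg and 0.12 for Tnfrsf9. Icos and Cd28 were closer to the regulatory T-cell list (Foxp3, Il2ra, Ikzf2 and Ctla4), with 0.91 and 0.86. Between members the highest value was 0.88 for Icos with Cd28, and Tnfrsf9 had 0.01 to 0.13 with the others. Without the 2 libraries that stand apart, the values with the T-cell markers were 0.68 to 0.86 for Icos, Cd28, Tnfrsf4, Tnfrsf18 and Cd27, 0.37 for Cd40lg and 0.11 for Tnfrsf9, and Icos had 0.88 and Cd28 0.82 with the regulatory T-cell list. All these values share the scaling of each library.

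The T-cell score, the mean log2(FPKM + 1) of Cd3d, Cd3e and Cd3g, served to set muDX400 and isotype tumours side by side at an equal T-cell level. Per unit of score Cd27 was higher by 0.85 ± 0.04 (SE, 110 libraries), Icos by 0.67 ± 0.05, Tnfrsf18 by 0.63 ± 0.04, Cd28 by 0.50 ± 0.04, Tnfrsf4 by 0.49 ± 0.05 and Tnfrsf9 by 0.05 ± 0.06. At equal score 0 of 6 members tested passed, beside 0% of all genes (0 of 16184 by limma, 1736 at an unadjusted p under 0.05). The differences left were 0.21 ± 0.07 for Tnfrsf9 (adjusted p = 0.244), 0.15 ± 0.06 for Icos (0.361), 0.08 ± 0.06 for Tnfrsf4, and -0.02 for Cd27, Tnfrsf18 and Cd28, each with an SE of 0.05 or less. Tnfrsf9 and Icos had an unadjusted p under 0.05. The score is itself measured after treatment, so these are descriptions at equal score, and a p above the threshold does not show that no difference remained.

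**Figure D3:**
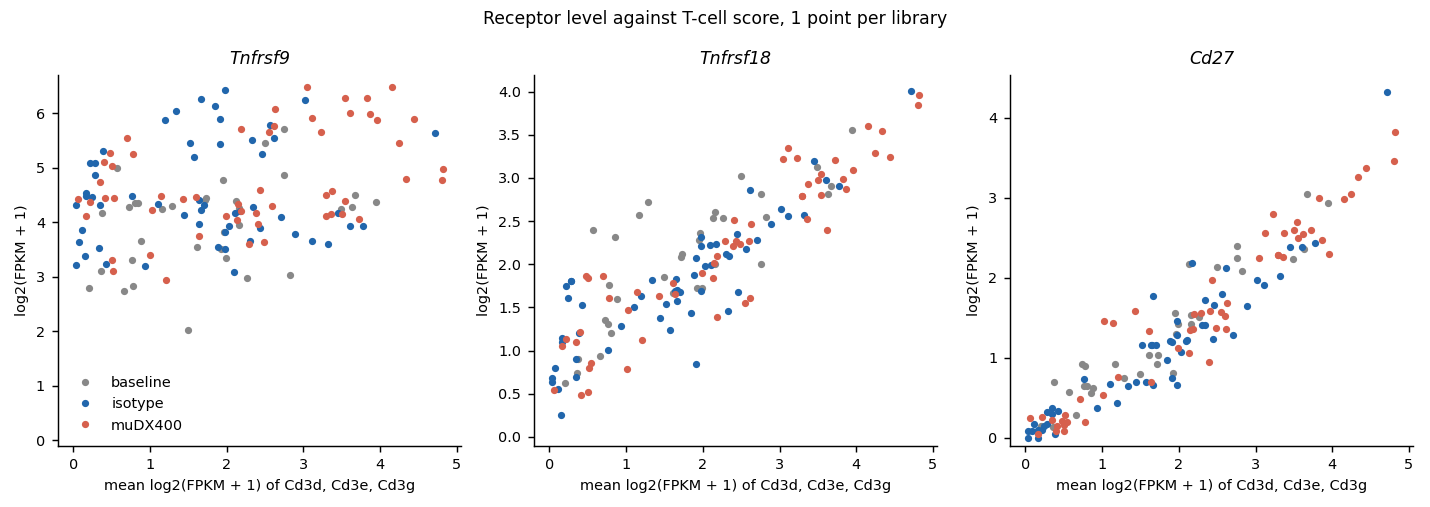
Level of Tnfrsf9, Tnfrsf18 and Cd27 against the T-cell score, both in log2(FPKM + 1), with 1 point per library coloured by arm. Cd27 climbs with the score across models and arms, Tnfrsf18 does so more loosely, and Tnfrsf9 takes values over 4 at the lowest scores as well as at the highest.

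**Figure D4:**
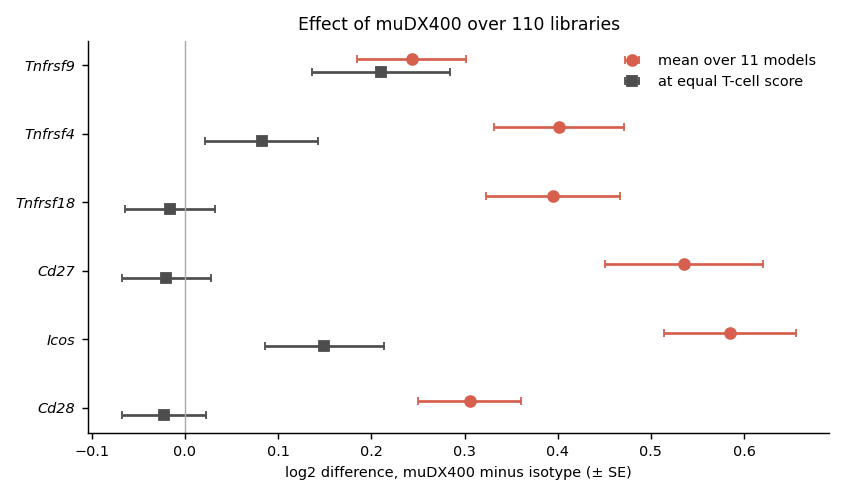
Mean difference between muDX400 and isotype tumours over 11 models (circles) and the difference at equal T-cell score (squares), in log2(FPKM + 1) with the SE as bar, for the 6 genes tested. Cd27 goes from 0.54 to -0.02, whereas Tnfrsf9 goes from 0.24 to 0.21.

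Relative to Cd3e, Icos and Tnfrsf18 went different ways in MC38. The ratio of group means to Cd3e went from 0.215 to 0.390 for Icos and from 0.247 to 0.367 for Cd27, but from 1.08 to 0.479 for Tnfrsf18 and from 30.7 to 3.88 for Tnfrsf9. Mean Cd3e there was 2.22 FPKM in isotype and 14.8 in muDX400 tumours. In MBT2, where Cd3e had a mean of 11.1 FPKM in isotype tumours and was higher after muDX400, the ratio of Tnfrsf18 was 0.500 and 0.480 and that of Tnfrsf9 1.16 and 1.10.

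Baseline and isotype tumours differed in opposite directions for members of the same family. Isotype tumours at 8 days had more Tnfrsf9 than baseline tumours, by 0.55 ± 0.07 on the log2 scale (SE; adjusted p = 2.33e-09, limma), and less Tnfrsf4 (-0.30 ± 0.07, adjusted p = 0.000997) and Tnfrsf18 (-0.31 ± 0.08, adjusted p = 0.00289). These 3 calls among 6 members tested stand beside 29.7% of all genes called, 695 higher and 4312 lower. With median-ratio scaling the split was 1662 higher and 2570 lower, and the same 3 members passed, at 0.62, -0.25 and -0.25. With a pseudocount of 0.1 Tnfrsf4 differed by -0.47, and Cd27 (-0.56) and Icos (-0.44) passed as well, beside 4722 of 16879 genes, 4138 of them lower. Cd27 (-0.23 ± 0.10), Icos (-0.17 ± 0.07) and Cd28 (-0.08 ± 0.06) did not pass, although with 4T1, CM3 or EMT6 left out, or without isotype replicate 2 of every model, 5 members passed. The share of all genes called in those fits is not reported here, so these counts of members cannot be set beside it. Some markers of T cells (2 of 7), NK cells (3 of 4) and regulatory T cells (2 of 4) fell, beside 4312 of 16879 genes called lower. The T-cell markers thus fell about as often as all genes tested.

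Tnfrsf9 was higher in isotype tumours in 9 of 11 models. In MC38 it went from 20.2, 20.8 and 30.9 FPKM at baseline to between 58.0 and 84.3 in the isotype tumours, without overlap (1.48 ± 0.24), and in CM3 from 3.08, 6.85 and 7.20 to between 7.48 and 17.0. MBT2 went the other way, from 18.4, 18.0 and 19.6 FPKM to between 11.2 and 14.3 (-0.52 ± 0.24). The largest differences of Tnfrsf18 were -1.15 ± 0.28 in CT26, -0.90 in TC1 and -0.66 in LL2, and Cd27 differed by -1.24 ± 0.32 in CT26.

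In all 11 models isotype tumours came from mice given antibody and baseline tumours were untreated, so injection and time in the host cannot be told apart. In 9 of the 11 models baseline and isotype tumours also stand in different sample-number blocks, so block cannot be told apart from these there. In B16F10 and RENCA, where they share one, Tnfrsf9 differed by 0.56 and 0.70 and was called in a fit of these 2 models (0.63 ± 0.15, adjusted p = 0.0113, limma). Tnfrsf4 (-0.20) and Tnfrsf18 (-0.06) were not called there, and the difference of Cd27 was 0.12.

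**Figure D5:**
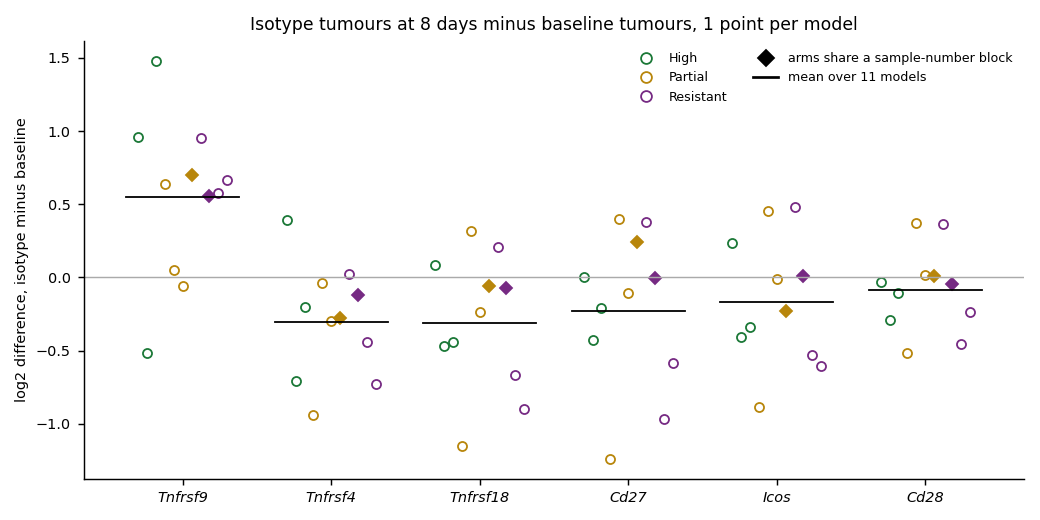
Difference between isotype tumours at 8 days and baseline tumours, in log2(FPKM + 1), with 1 point per model coloured by response class; filled diamonds mark B16F10 and RENCA, whose arms share a sample-number block, and bars the mean over 11 models. The mean is 0.55 for Tnfrsf9 and below 0 for the other 5 genes.

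The genes most like each member were ranked by the Pearson correlation over the 33 group means, among 15779 genes. For Tnfrsf4 the most alike gene was its neighbour Tnfrsf18 (0.94), and the reverse held as well. Among the genes most like Cd27 were Gimap7 (0.98), Tbx21, Skap1 and Zap70, all genes of lymphocytes. For Icos they were Ctla4 (0.97), the gene between it and Cd28, then Ccr8, Ptger2, Il27 and Cd6, and those like Cd28 included Cd226 (0.95), Ikzf3, Cd27 and Sh2d1a.

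After Tnfrsf18, the genes most like Tnfrsf4 were Sept1, Adap1, Hcst and Gmfg, and after Tnfrsf4 those most like Tnfrsf18 were Snx20, Ctsw, Rhof and Sept1. Tnfrsf9 had no gene as close: the highest were Foxf1 (0.77), a forkhead transcription factor, Msx1 (0.75), a homeobox factor, Olfml2b, Maff and Vldlr. None of the T-cell markers was among the 5 genes most like it. For Cd40lg, itself under the filter, they included the immunoglobulin segment Ighv4-2 (0.90), Gm15056, Irf4 and Ccl1, a ranking in which RENCA isotype replicate 2 takes part.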

How the data were processed

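Total RNA from 143 mouse tumours was depleted of ribosomal RNA, made into stranded libraries and sequenced as paired 50-base reads, per the labels' protocols. The deposited values are FPKM per gene, made by the authors. How reads were aligned, quantified and scaled, and on which genome build and annotation, is not given in the sources used here. Columns carry the sample numbers of the labels, which assigned all 143 of them. Groups and replicate numbers are those of the labels. Of 54232 identifiers, 54079 have a symbol in GENCODE M21 (GRCm38), which also gave coordinates. Promoter stretches came from RefSeq (GRCm38.p6).

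FPKM are not counts, so log2(FPKM + 1) was tested with limma 3.58.1 (trend) in R 4.3.3, 2-sided, with Benjamini-Hochberg adjustment over all genes tested and a threshold of 0.05. Log2 differences understate changes of low genes. Genes were tested where they reached 1 FPKM in 5 or more of 10 libraries within models or of 110 at 8 days, in 3 or more of 88 for isotype against baseline, and a mean of at least 1 in 3 models for class comparisons of levels. Single members were also tested by exact permutation. The scripts were tested on simulated data. As the labels do not say that libraries come from separate mice, p-values measure only the spread between these libraries, which may be technical. Depth, estimated from the steps between low values, was about 11600000 to 50500000 fragments, and no interval was computed from it.

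The members, lists, tests and named genes were chosen with earlier results of these data known. Named were the members, the 5 genes most correlated with each over 33 group means, all 8 ligands, the 2 signalling genes with the largest passing value in each direction, and Ctla4, Pdcd1, Cd3e, Foxp3 and Cd8a; a few genes that this rule or a marker list gives are not reported here. Alternatives changed the pseudocount (0.1), scaling, filter, spread, T-cell score, block, model or library left out. Leaving out CM3 isotype replicate 4 or RENCA isotype replicate 2 in comparisons over models, isotype orders and correlations was chosen after seeing the data.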

Additional observations from a re-analysis of the deposited data

Results flagged for a closer look

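Groups of 5 libraries were searched for a library far from the rest, by its gap to the nearest library over the range, on the log2(FPKM + 1) scale. Of 104 gene-by-group sets, 10 held one. Chance gives about 1 in 20 only where sets are independent, and the members vary together within groups, so the 10 cannot be set against that rate. RENCA isotype replicate 2 accounts for 4 of them, high in Tnfrsf4 (12.0 FPKM against 2.87 to 4.00 in the other 4), Icos (5.84 against 0.884 to 1.56), Cd28 (2.81 against 0.264 to 0.722) and Cd40lg (1.40 against 0 to 0.0417). CM3 isotype replicate 4 accounts for 3, high in Cd27 (4.22 against 1.30 to 1.44), Icos (3.12 against 0.703 to 1.17) and Cd28 (2.63 against 0.327 to 0.705). The other 3 concern Tnfrsf4, low in 4T1 isotype replicate 2 (1.68 FPKM against 2.44 to 2.54) and high in B16F10 isotype replicate 3 (1.73 against 0.0872 to 0.191), and Tnfrsf18, high in MB49 muDX400 replicate 2 (4.72 against 3.61 to 3.82).

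The effect of muDX400 differed between models for Tnfrsf9 (adjusted p = 0.0156, limma's moderated F), Tnfrsf18 (0.0211), Cd27 (0.000786), Icos (7.58e-06) and Cd28 (0.000406), beside 32.4% of all genes called. It rose with response class for Cd27 (adjusted p = 0.0435, limma slope), Icos (0.0446) and Cd28 (0.0435), with the model as the replicate, beside 0.902% of all genes. None of these class calls held with a pseudocount of 0.1, median-ratio scaling or no expression filter. In both comparisons Cd28 passed the filter only with the muDX400 libraries, so its calls cannot be set beside these shares.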

How the results depend on the processing

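The number of members called kept within 1.5 times its value in 258 recomputed counts and moved further in 38, and no called value changed sign. Many of the 258 belong to comparisons with 0 members called in the main fit and again on recomputing. The 258 therefore does not measure how stable the calls were. Within models, leaving out 1 library at a time gave 0 to 5 members in CM3 (main 0; 5 without isotype replicate 4), 0 to 5 in MBT2 (main 0; 5 without muDX400 replicate 3, 2 without muDX400 replicate 5), 0 to 2 in RENCA (main 0; 2 without isotype replicate 2) and 2 to 4 in MC38 (main 4). A spread shared over 110 libraries called 4 in CM3, 4 in MBT2, 2 in RENCA and 15 pairs of member and model in place of 4. Exact permutation, unadjusted, gave 5 in CM3, 6 in MBT2, 1 in CT26 and 1 in RENCA, 5 for the effect against class and 2 for isotype levels against class. The mean effect called 0 members in the block of B16F10 and RENCA in place of 6, and the difference between models 1 in place of 5 when MC38 was left out. The effect against class called 0 in place of 3 with a pseudocount of 0.1, median-ratio scaling or no expression filter, or when 4T1, B16F10, CM3, CT26, EMT6, LL2, MC38 or TC1 was left out. Isotype minus baseline called 5 in place of 3 with a pseudocount of 0.1, when 4T1, CM3 or EMT6 was left out or without isotype replicate 2, and 1 in B16F10 and RENCA only. The causes of these changes were not tested, apart from the filter in MC38. Counts over all genes moved more: in CM3 from 0 to 3942 without isotype replicate 4 and 6662 with the shared spread, in MBT2 from 0 to 2595 without muDX400 replicate 3 and 478 without replicate 5, in CT26 from 41 to 150 with median-ratio scaling and 21 without a filter, in RENCA from 325 to 2629 with the shared spread and 127 without a filter, in the mean effect from 3736 to 1922 without MC38, in the difference between models from 5245 to 2998 without MC38, against class from 146 to 63 with median-ratio scaling and 0 with a pseudocount of 0.1 or no filter, and in isotype minus baseline from 5007 to 1420 in B16F10 and RENCA only. The count over all genes is not reported here for isotype minus baseline without 4T1, CM3, EMT6 or isotype replicate 2. Nor is it given for the mean effect in the block of B16F10 and RENCA. Cd40lg lay under the filter throughout, and at these depths its level is not resolved in most tumours.

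With the replicate number as a replicate block, 4 members were called in MC38, 6 in the mean effect and 3 in isotype minus baseline, as without it, and it changed no count of members. Nothing in the labels pairs libraries by number, and only 18 of 55 same-numbered pairs of isotype and muDX400 libraries had deviations correlated over 0.1.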

Other observations

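Cd40lg was tested in no model by limma, but exact permutation, which needs no filter, gave it an unadjusted p of 0.0397 in CM3 (mean 0.233 FPKM in isotype and 0.547 in muDX400 tumours, 5 each) and 0.0476 in MC38, where it was listed at 0 in all isotype tumours and had a mean of 0.0509 after muDX400. Neither value is adjusted for the 77 pairs of gene and model tested. CM3 was the model with the most Cd40lg after treatment.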
